A study of Homo sapiens with 10 samples.

Results

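NRF2, the transcription factor encoded by NFE2L2, was examined here in PANC-1 cells together with its inhibitor KEAP1 and 7 of its known antioxidant targets, namely NQO1, HMOX1, GCLM, GCLC, TXNRD1, SRXN1 and OSGIN1. These 9 genes were chosen by symbol, and each was found in all 10 libraries among the 27884 genes listed. Of the 9 members, 6 passed the test between shPAR1 and shCtrl cells, as did 40.9% of all 17518 genes tested. NFE2L2, NQO1, HMOX1, GCLC and OSGIN1 were higher in shPAR1 cells, TXNRD1 was lower, and KEAP1, GCLM and SRXN1 did not pass. The largest difference was that of HMOX1, with a log2 fold change (log2FC, shPAR1 minus shCtrl) of 0.69 and a standard error (SE) of 0.0722.

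PANC-1 is an established human pancreatic ductal adenocarcinoma line. The cells were grown in DMEM with fetal calf serum, received, by lentivirus, an shPAR1 hairpin against F2R (the gene for the thrombin receptor PAR1) in the 5 shPAR1 libraries or a ctrl hairpin in the 5 shCtrl libraries, and were all selected with puromycin. The study asked what loss of PAR1 does to the transcriptome of ductal tumor cells. Each group stands for 1 hairpin in 1 line, so the effect of the hairpin sequence and that of PAR1 loss cannot be told apart. Whether they stem from separate cultures is not stated in the sources, so p-values measure the spread between these libraries, which may be technical.

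In resting cells KEAP1, an adaptor of a CUL3 ubiquitin ligase, binds NRF2 and delivers it to the proteasome. Oxidants and electrophiles modify cysteines of KEAP1, NRF2 then accumulates, pairs with a small MAF protein and binds antioxidant response elements near genes for glutathione synthesis, thioredoxin recycling, quinone reduction, heme breakdown and NADPH supply. NRF2 is therefore mostly set at the level of the protein, which these RNA data do not measure. In pancreatic ductal tumors NRF2 is known for keeping oxidants low.

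Values are log2(normalized count + 1) unless stated, where the normalized count is the count divided by the size factor of the library. F2R itself was 10.20, 10.24, 10.32, 10.18 and 10.21 in shPAR1 libraries 1 to 5 and 11.81, 11.75, 11.75, 11.80 and 11.82 in shCtrl libraries 6 to 10. The targeted gene was thus low in every library labelled shPAR1, with a log2FC of -1.56 (SE 0.0402, adjusted p = 7.69e-15, limma). Libraries held 15335264 to 22876248 counts in shPAR1 and 18317098 to 25369056 counts in shCtrl cells. The mitochondrial genome contributed 7.37% to 9.08% of a library in shPAR1 and 5.71% to 7.07% in shCtrl cells, and no member's call changed when libraries were scaled to totals without them. Of 7 ductal epithelial marker genes, 1 was higher and 5 were lower in shPAR1 cells, with summed levels of 2079 to 2334 CPM (counts scaled to the library total) against 2893 to 3132 in shCtrl cells. All 7 were detected in every library. KRT8, KRT18, KRT19, EPCAM and SOX9 were the lower genes. CDH1 was the higher gene (log2FC 1.04, SE 0.122, adjusted p = 1.95e-06, limma). KRT7 did not pass, with 65 counts over the shPAR1 and 99 over the shCtrl libraries. Of 7 markers of blood and immune cells 3 were measured, with summed levels of 0.568 to 1.13 CPM in shPAR1 and 0.362 to 0.819 in shCtrl cells, and of 7 endothelial and fibroblast markers 3 were measured, with 4.56 to 6.05 and 3.67 to 4.30. PTPRC was at 0 in 2 libraries. CD68, with 25 counts over the shPAR1 and 19 over the shCtrl libraries, and HBA1, with 40 and 28, were detected in every library. PECAM1 was at 0 in 4 libraries, with 14 counts over the shPAR1 and 1 over the shCtrl libraries. VWF went the other way, with 8 and 20 counts, and was detected in every library. PDGFRB was detected in every library, with 462 and 400 counts, and was called higher in shPAR1 cells (log2FC 0.37, SE 0.107, adjusted p = 0.00929, limma). The part of any of these markers in the members' differences was not tested.

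Expression of NFE2L2 was slightly higher in shPAR1 cells. These are bulk libraries, in which a change in the share of expressing cells and one in RNA per cell cannot be told apart. NFE2L2 was 11.40, 11.41, 11.54, 11.49 and 11.53 in shPAR1 libraries 1 to 5 and 11.38, 11.32, 11.31, 11.39 and 11.35 in shCtrl libraries 6 to 10. The groups did not overlap, but the lowest shPAR1 library (library 1, 11.3956) lay only just above the highest shCtrl library (library 9, 11.3941). The means were 11.47 ± 0.0685 and 11.35 ± 0.0366 (SD, n = 5 each), a log2FC of 0.12 (SE 0.0416, 95% confidence interval 0.04 to 0.21, adjusted p = 0.0243, limma), or 8.91% more. Of all 17518 genes tested, 67.2% had a lower log2FC. The call depended on which library was left out. It was lost without shPAR1 library 3 (adjusted p = 0.0640), shPAR1 library 4 (0.0544), shCtrl library 7 (0.0627) or shCtrl library 8 (0.0624). The log2FC values in these limma fits were 0.11 to 0.12. With any other single library left out the call was kept. NFE2L2 (ENSG00000116044) is encoded on chromosome 2 of GRCh38 (177218667 to 177392756, minus strand), and 38.4% of its exonic bases overlap 4 other annotated genes. Of its exonic bases 13.6% are overlapped on the same strand and 23.4% by HNRNPA3 on the other strand, and no source used here gives the strand setting of the counting.

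KEAP1, the adaptor that holds NRF2 low, was measured at 10.84, 11.05, 11.09, 11.0046 and 10.95 in shPAR1 and at 10.95, 10.94, 11.05, 10.95 and 10.90 in shCtrl libraries. Both the lowest and the highest library belonged to the shPAR1 group, so the shCtrl values lay within the shPAR1 range. The log2FC was 0.03 (SE 0.0493, 95% confidence interval -0.07 to 0.13, adjusted p = 0.659, limma). Within a library NFE2L2 exceeded KEAP1 by 0.49 ± 0.0892 log2 units in the shPAR1 group and by 0.39 ± 0.0825 in the shCtrl group (SD, n = 5 each), values that overlapped between groups (exact two-sided permutation test, p = 0.127, also 0.127 after adjustment over the 3 pairs of genes compared in this way). Without shPAR1 library 2 the difference was 0.125 (exact permutation p = 0.0317). KEAP1 is encoded on chromosome 19 (10486125 to 10503558, minus strand), and no other annotated gene shares its exons.

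HMOX1 encodes heme oxygenase 1, the inducible enzyme that splits heme into biliverdin, iron and carbon monoxide. Its expression was 8.47, 8.77, 8.78, 8.76 and 8.54 in shPAR1 libraries and 7.88, 7.96, 8.03, 7.98 and 8.0 in shCtrl libraries. Every shPAR1 library lay above every shCtrl library, and shPAR1 libraries 1 and 5 were the lowest of their group. The log2FC of 0.69 (SE 0.0722, 95% confidence interval 0.54 to 0.85, adjusted p = 4.43e-07, limma) rested on 242 to 507 counts per library. HMOX1 is encoded on chromosome 22 (35380361 to 35394214, plus strand). HMOX2, the constitutive heme oxygenase, had a log2FC of 0.14 (SE 0.0434, adjusted p = 0.0157, limma). HMOX1 minus HMOX2 within a library was -1.58 ± 0.168 log2 units in the shPAR1 group and -2.13 ± 0.0542 in the shCtrl group (SD, n = 5 each), so the gap between these enzymes was 0.56 narrower (exact two-sided permutation test, p = 0.00794, adjusted over the 3 pairs 0.0119).

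NQO1, the quinone reductase that uses NADPH or NADH to bring quinones to hydroquinones, was measured at 10.94, 10.96, 11.12, 11.06 and 11.18 in shPAR1 libraries and at 10.54, 10.53, 10.61, 10.51 and 10.64 in shCtrl libraries. The groups were separated by a gap wider than the range of either group. The log2FC was 0.48 (SE 0.0504, 95% confidence interval 0.38 to 0.59, adjusted p = 4.47e-07, limma), or 39.9% more normalized counts. NQO1 is encoded on chromosome 16 (69706996 to 69726668, minus strand), and 19.4% of its exonic bases are shared with an annotated gene on the other strand.

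OSGIN1, an oxidative stress-induced growth inhibitor, was expressed at a lower level, with 97 to 211 counts per library. It was 6.96, 7.51, 7.32, 7.20 and 7.0028 in shPAR1 libraries and 6.48, 6.78, 6.86, 6.82 and 6.75 in shCtrl libraries. The groups did not overlap, the shPAR1 libraries were spread more widely, and shCtrl library 6 stood below the others of its group. The log2FC was 0.46 (SE 0.113, 95% confidence interval 0.22 to 0.70, adjusted p = 0.00305, limma). OSGIN1 is encoded on chromosome 16 (83931311 to 83966332, plus strand), and 8.22% of its exonic bases overlap MLYCD on the same strand.

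The genes for the subunits of glutamate-cysteine ligase, the enzyme of the rate-limiting step of glutathione synthesis, differed from each other. GCLC, the catalytic subunit, was 10.36, 10.26, 10.42, 10.34 and 10.50 in shPAR1 libraries and 10.22, 10.08, 10.15, 10.04 and 10.19 in shCtrl libraries. All shPAR1 libraries were above all shCtrl libraries, with a log2FC of 0.24 (SE 0.0520, 95% confidence interval 0.13 to 0.35, adjusted p = 0.00108, limma). GCLM, the modifier subunit, was 10.30, 10.12, 10.24, 10.13 and 10.41 in shPAR1 libraries and 10.30, 10.24, 10.18, 10.31 and 10.26 in shCtrl libraries. The shCtrl values lay within the range of the shPAR1 values, and the log2FC was -0.02 (SE 0.0556, 95% confidence interval -0.13 to 0.10, adjusted p = 0.834, limma). Its sign turned, at 0.0147 when libraries were scaled to totals without mitochondrial genes, 0.0127 without shPAR1 library 2 and 0.0118 without shPAR1 library 4. GCLC minus GCLM within a library ranged from 0.05 to 0.22 in shPAR1 cells and from -0.27 to -0.03 in shCtrl cells, so GCLC stood above GCLM in 5 of 5 shPAR1 libraries and below it in 5 of 5 shCtrl libraries. The difference of 0.26 log2 units between groups does not depend on the scaling (exact two-sided permutation test, p = 0.00794, adjusted over the 3 pairs 0.0119). These are counts per gene and not per base, so the sign within a group also reflects the different transcript lengths. Of the exonic bases of GCLC 9.68% are overlapped by other annotated genes and 6.14% on the same strand, while GCLM shares none. GCLC is encoded on chromosome 6 (53497341 to 53616970, minus strand) and GCLM on chromosome 1 (93885199 to 93909456, minus strand).

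TXNRD1, the cytosolic thioredoxin reductase that uses NADPH to keep thioredoxin reduced, moved the other way. It was 12.62, 12.59, 12.72, 12.67 and 12.78 in shPAR1 libraries and 12.92, 12.96, 12.91, 13.01 and 13.0014 in shCtrl libraries. Each shPAR1 library lay below each shCtrl library. The log2FC was -0.29 (SE 0.0423, 95% confidence interval -0.38 to -0.20, adjusted p = 2.75e-05, limma) on 5069 to 10450 counts per library, the deepest coverage of any member. TXNRD1 is encoded on chromosome 12 (104215779 to 104350307, plus strand), and no other annotated gene shares its exons.

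SRXN1, which encodes sulfiredoxin and repairs overoxidized peroxiredoxins, had only 10 to 23 counts in a library. The counts were 23, 16, 19, 10 and 17 in shPAR1 libraries and 12, 21, 17, 10 and 21 in shCtrl libraries. High and low libraries were found in both groups, and a difference was not detectable at this depth, with a log2FC of 0.25 (SE 0.271, 95% confidence interval -0.32 to 0.82, adjusted p = 0.494, limma). SRXN1 is encoded on chromosome 20 (646615 to 653200, minus strand), and 90.7% of its exonic bases are shared on the same strand with ENSG00000270299, itself listed with 8 counts over the shPAR1 and 26 over the shCtrl libraries. Reads in shared exons may be left uncounted for both genes, and the part of this overlap in the low counts was not tested.

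**Figure D1:**
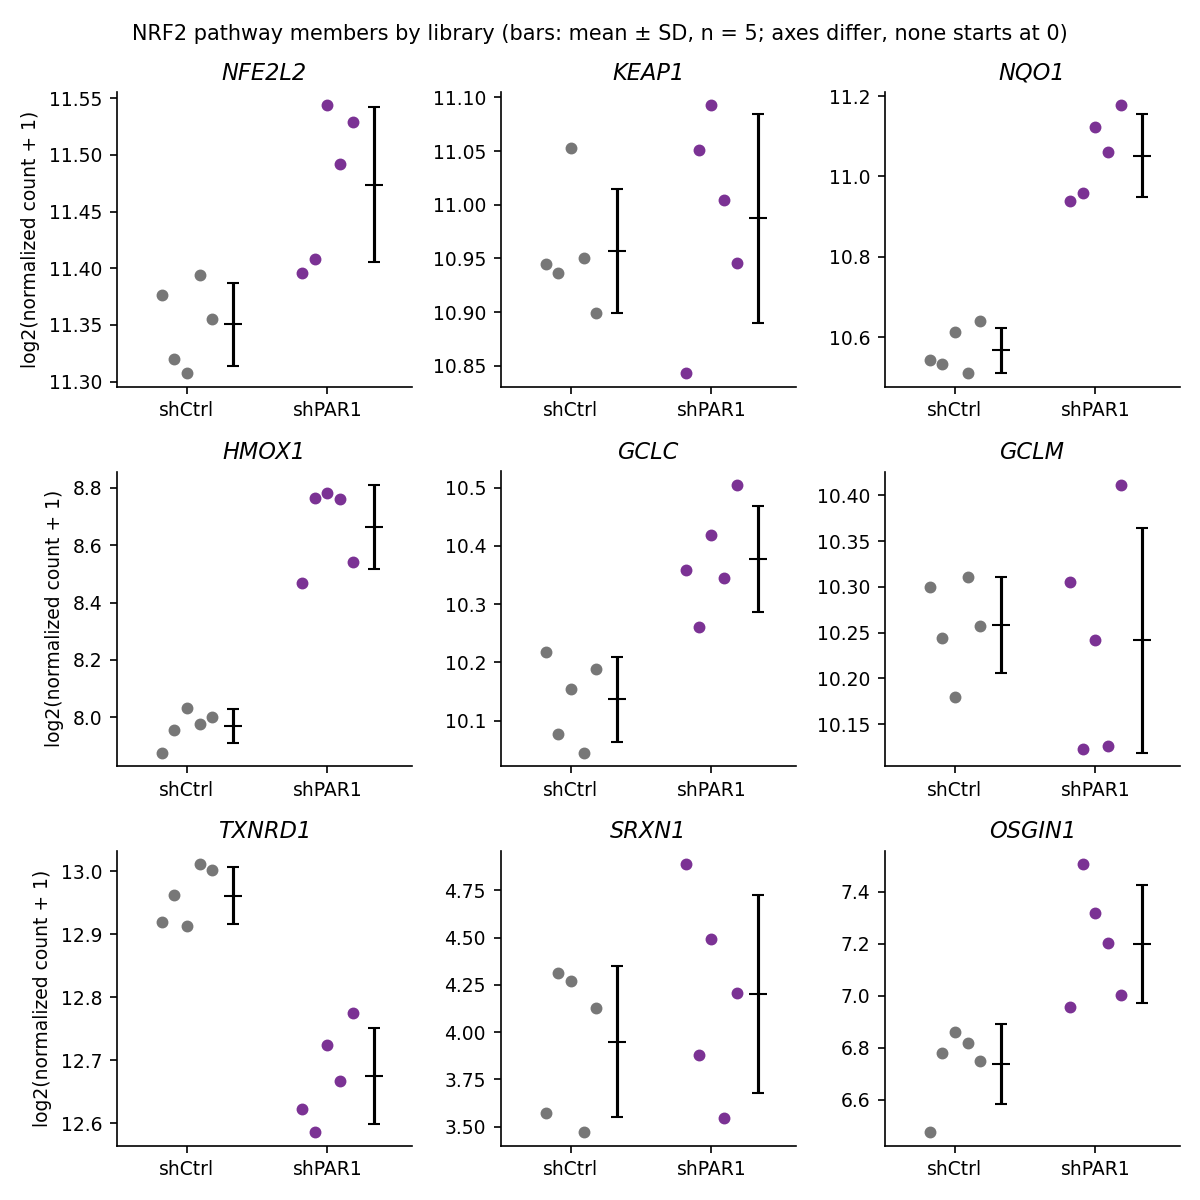
Expression of the 9 members in each library, as log2(normalized count + 1) on the vertical axes (each panel has its own range), with 5 shPAR1 and 5 shCtrl libraries as points and the group mean ± SD as line and bar. The groups are apart for NFE2L2, NQO1, HMOX1, GCLC, OSGIN1 and, in the other direction, TXNRD1, and they overlap for KEAP1, GCLM and SRXN1.

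As a group the 9 members were all tested, since each passed the filter of at least 10 normalized counts in at least 5 libraries. The 6 that passed the test compare with 40.9% of all 17518 genes tested. Higher calls were made for 5 members, where 19.0% of all genes were called higher, and a lower call for 1 member, where 21.9% of all genes were called lower. The 2 groups of libraries did not overlap for the same 6 members, as they did for 29.2% of all genes (13.3% with shPAR1 higher and 15.9% with shPAR1 lower). The median log2FC of the members was 0.24, beside a median close to 0 over all genes tested. Without shPAR1 library 3, shPAR1 library 4, shCtrl library 7 or shCtrl library 8 the number of higher members was 4, NFE2L2 being the one lost. The exact two-sided permutation test gave p = 0.00794, the smallest that 5 against 5 libraries allow, for each of the 6 called members.

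**Figure D2:**
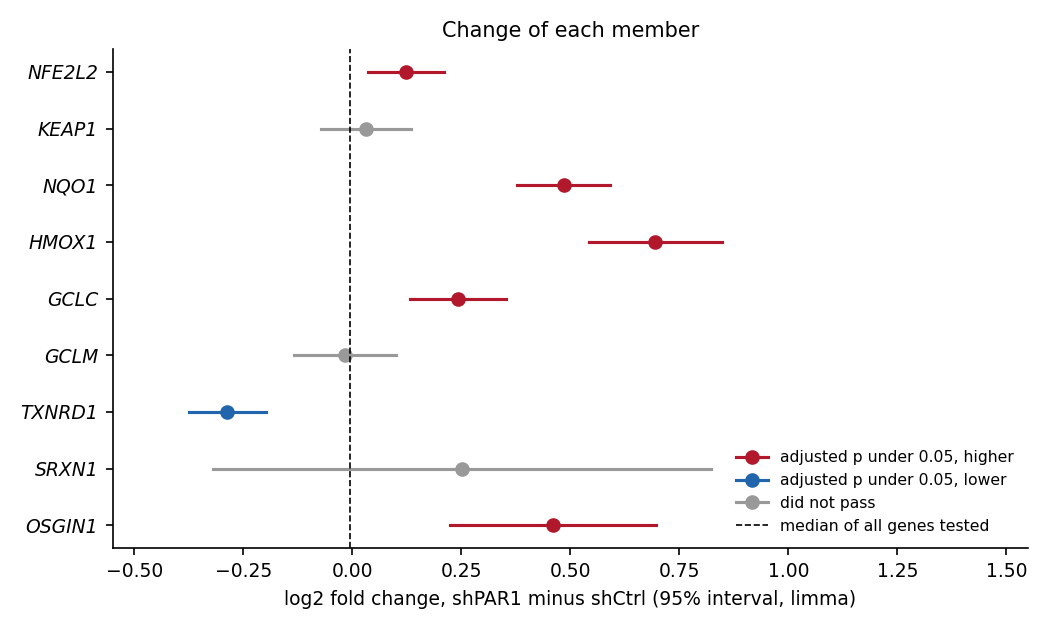
Log2FC of each member, shPAR1 minus shCtrl, as a point with its 95% confidence interval from limma (5 libraries a group). The intervals of HMOX1, NQO1, OSGIN1, GCLC and NFE2L2 lie above 0, that of TXNRD1 lies below 0, and the interval of SRXN1, from -0.32 to 0.82, is the widest.

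Levels were compared between members only per length, as normalized counts per kilobase of the MANE Select transcript, the representative transcript of each gene. In shCtrl cells TXNRD1 was highest at 2067 ± 64.7 normalized counts per kilobase (SD, n = 5), followed by NFE2L2 at 1067 ± 27.0, KEAP1 at 775 ± 31.4 and NQO1 at 602 ± 23.3. GCLC at 297 ± 15.1, GCLM at 251 ± 9.01, HMOX1 at 161 ± 6.48, OSGIN1 at 55.2 ± 5.56 and SRXN1 at 5.91 ± 1.65 came next, and no neighbours in this order had overlapping ranges. In shPAR1 cells the order changed in 2 places. NQO1 at 843 ± 60.0 normalized counts per kilobase stood beside KEAP1 at 793 ± 52.7, with overlapping ranges, and HMOX1 at 261 ± 26.0 stood beside GCLM at 248 ± 21.4, again with overlapping ranges. TXNRD1 at 1695 ± 90.0 remained the highest member per kilobase and SRXN1 at 7.28 ± 2.77 the lowest. Other annotated genes overlap 90.7% of the exonic bases of SRXN1 and 38.4% of those of NFE2L2, which may alter their counts. The length used for NFE2L2 was 2446 bases, while its annotated exons cover 14975. The part of these limits in the order was not tested.

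The antioxidant response element carries the core TGACNNNGC, to which the NRF2 and small MAF pair binds. RefSeq promoter windows of GRCh38.p14, from 250 bases before to 50 bases after an annotated start, were given for 8 of the 9 members, all but HMOX1, and were searched on both strands. The core was found in 3 of 8 members (37.5%), KEAP1, GCLM and TXNRD1, and in 16.1% of all 27305 genes with such a window. The matches follow with 10 bases on each side and the core in capitals, to show the letters found in these members. TXNRD1 was lower, and KEAP1 and GCLM did not pass the test, nor did SRXN1, whose window held no core.
KEAP1, chr19:10502807-10502835, minus strand: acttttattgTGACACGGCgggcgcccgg
KEAP1, chr19:10502784-10502812, plus strand: caggtcaccaTGACTAAGCagagccgggc
GCLM, chr1:93909446-93909474, plus strand: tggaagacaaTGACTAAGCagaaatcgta
TXNRD1, chr12:104215670-104215698, plus strand: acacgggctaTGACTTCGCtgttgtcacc
TXNRD1, chr12:104215761-104215789, minus strand: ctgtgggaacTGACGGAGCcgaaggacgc
TXNRD1, chr12:104286920-104286948, minus strand: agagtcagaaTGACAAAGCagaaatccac

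None of the 4 members that were called higher and had a window (NFE2L2, NQO1, GCLC and OSGIN1) held the core there. The share of all genes was 16.1%, so 4 members are too few to show a difference. The looser core TGANNNNGC was found in 6 of 8 members, against 47.1% of all genes. NFE2L2, NQO1 and OSGIN1 of the members called higher were among these 6. OSGIN1 has such a match on the minus strand at chr16:83953131-83953159, shown with the core in capitals.
OSGIN1: ttcataagcgTGAGTCAGCaggggcccgt
This OSGIN1 match overlaps the AP-1 letters TGACTCA read on the other strand, which 1 of 8 members and 6.05% of all genes held. A match is a description of letters, and known elements outside these windows were not searched.

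The wider NRF2 pathway was read from a list of 129 genes in 11 roles, other than the members, of which 117 were matched and 109 tested. Of these, 28 passed as higher in shPAR1 cells and 30 as lower, and 51 did not pass, so 53.2% were called beside 40.9% of all genes, with a median log2FC of -0.03. Genes of the pathway thus moved in both directions in nearly equal numbers. Over all genes tested, 19.0% were called higher and 21.9% lower. The counts of each role below are to be read beside these shares.

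Among 7 tested relatives and DNA-binding partners of NRF2, 2 were higher and 3 lower. MAFK, a small MAF partner of NRF2, had a log2FC of 0.28 (SE 0.0628, adjusted p = 0.00136, limma), with overlapping groups. BACH2, a repressor that competes for antioxidant response elements, fell, with a log2FC of -1.03 (SE 0.166, adjusted p = 6.95e-05, limma). This rested on few counts, 178 over the shPAR1 and 425 over the shCtrl libraries. BACH1, the best known repressor of HMOX1, was named after its values were seen. Its mean was 9.05 ± 0.11 over the shPAR1 libraries and 9.55 ± 0.0695 over the shCtrl libraries (SD, n = 5 each), a log2FC of -0.51 (SE 0.0592, adjusted p = 1.91e-06, limma). Its identifier stands in the files under the symbol GRIK1-AS2, so the value was matched by identifier.

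Of 16 genes for the turnover of NRF2, 3 were higher, 5 lower and 8 did not pass. DPP3, a dipeptidyl peptidase that binds KEAP1, had a log2FC of 0.23 (SE 0.0411) and SYVN1, a ubiquitin ligase of the endoplasmic reticulum, one of 0.24 (SE 0.0637, groups overlapping). BTRC, the substrate receptor of another ligase that degrades NRF2, fell with a log2FC of -0.41 (SE 0.0448, adjusted p = 7.75e-07, limma). SKP1, of the same ligase as BTRC, fell with -0.27 (SE 0.0574), and its groups overlapped. FBXW11, the alternative substrate receptor to BTRC, and CUL1, the scaffold, did not pass. Their log2FC values were -0.03 (SE 0.0441) and -0.06 (SE 0.0418), and both genes were named after their values were seen. CUL3, the scaffold of the KEAP1 ligase and named after its value was seen, had a log2FC of -0.02 (SE 0.0405) and did not pass. RBX1, another subunit of the KEAP1 ligase, was called lower, with -0.25 (SE 0.0663, adjusted p = 0.00595, limma). SQSTM1, which binds KEAP1, was called higher, with 0.21 (SE 0.0465, adjusted p = 0.00148, limma). Both were also named after their values were seen.

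Glutathione synthesis and recycling held the largest change of the list. Of 10 tested genes 6 were higher, 1 lower and 3 did not pass, with a median log2FC of 0.38. SLC7A11, the cystine transporter that supplies cysteine for glutathione, rose to 9.45 ± 0.11 in the shPAR1 libraries (SD, n = 5) from 7.95 ± 0.147 in the shCtrl libraries (SD, n = 5), a log2FC of 1.496 (SE 0.0745, adjusted p = 2.52e-11, limma). GGT1, which breaks down glutathione outside the cell, had a log2FC of 0.89 (SE 0.182), on 227 counts over the shPAR1 and 138 over the shCtrl libraries. GGCT, a cytosolic enzyme of glutathione breakdown, had one of -0.34 (SE 0.0685). CHAC1, also of cytosolic glutathione breakdown, had one of 0.63 (SE 0.108) and was called higher. The synthetase GSS (-0.0012, SE 0.0561) and the reductase GSR (-0.0055, SE 0.0589) did not pass. CHAC1, GSS and GSR were named after their values were seen. Of 5 exporters of glutathione conjugates 2 were higher and 1 lower. ABCC1 rose from 13.95 ± 0.0394 to 14.66 ± 0.0826 (SD, n = 5 each), a log2FC of 0.72 (SE 0.0437, adjusted p = 3.97e-10, limma), and ABCC3 had one of -0.44 (SE 0.0552).

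The glutathione-using enzymes did not share a direction. Of 6 peroxidases none was higher and 2 were lower, and the most changed was GPX3, the secreted peroxidase, with a log2FC of -0.72 (SE 0.123, adjusted p = 1.22e-04, limma). Of 12 tested transferases 4 were higher, 2 lower and 6 did not pass. GSTZ1 had a log2FC of 0.56 (SE 0.0788), GSTM2 one of 0.47 (SE 0.145), GSTO1 one of -0.35 (SE 0.0572) and GSTA4 one of -0.29 (SE 0.0790), the groups of GSTM2 and GSTA4 overlapping.

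Of 18 thioredoxin, peroxiredoxin, glutaredoxin and sestrin genes 3 were higher, 6 lower and 9 did not pass, beside 19.0% higher and 21.9% lower among all genes tested. GLRX3 had a log2FC of -0.48 (SE 0.0534) and PRDX3, the mitochondrial peroxiredoxin, one of -0.44 (SE 0.0641). Thioredoxin itself, TXN, the substrate of TXNRD1 and named after its value was seen, had one of -0.36 (SE 0.0689, adjusted p = 3.35e-04, limma). SESN2, a stress-induced sestrin, rose by 0.59 (SE 0.0825) and PRDX2 by 0.45 (SE 0.0900, groups overlapping) on the log2 scale.

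Of 11 genes for NADPH supply 1 was called higher, 6 were called lower and 4 were not called. The shares over all genes tested were 19.0% higher and 21.9% lower. PGD, the second NADPH-producing enzyme of the pentose phosphate pathway, had a log2FC of -0.38 (SE 0.0410, adjusted p = 6.21e-07, limma) and IDH2, the mitochondrial isocitrate dehydrogenase, one of -0.43 (SE 0.0558). NNT, the mitochondrial transhydrogenase, was the higher gene, with 0.13 (SE 0.0452), overlapping groups and no call without shCtrl library 8.

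Downstream of heme oxygenase, the biliverdin reductases went apart. BLVRB had a log2FC of 0.66 (SE 0.0670, adjusted p = 3.43e-07, limma) and BLVRA one of -0.72 (SE 0.0622, adjusted p = 4.08e-08). FTL, the ferritin light chain that stores iron, had one of -0.52 (SE 0.0579), and SLC48A1, a heme transporter, one of 0.15 (SE 0.0513). SLC48A1 lost its call without shPAR1 library 3, shCtrl library 6 or shCtrl library 8. In all, 3 of 11 heme and iron genes were called higher, 2 were called lower and 6 were not called.

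Of 10 tested genes for the detoxification of quinones, carbonyls and xenobiotics 3 were higher, 2 lower and 5 did not pass. EPHX1, the microsomal epoxide hydrolase, had a log2FC of 0.28 (SE 0.0579), CBR1, a carbonyl reductase, one of 0.26 (SE 0.0577), AKR1B1, aldose reductase, one of -0.23 (SE 0.0482) and AKR1A1 one of -0.20 (SE 0.0445). Of 3 tested genes that remove superoxide and peroxide, CAT, which encodes catalase, was higher with a log2FC of 0.29 (SE 0.0423, adjusted p = 2.08e-05, limma), and the other two did not pass.

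**Figure D3:**
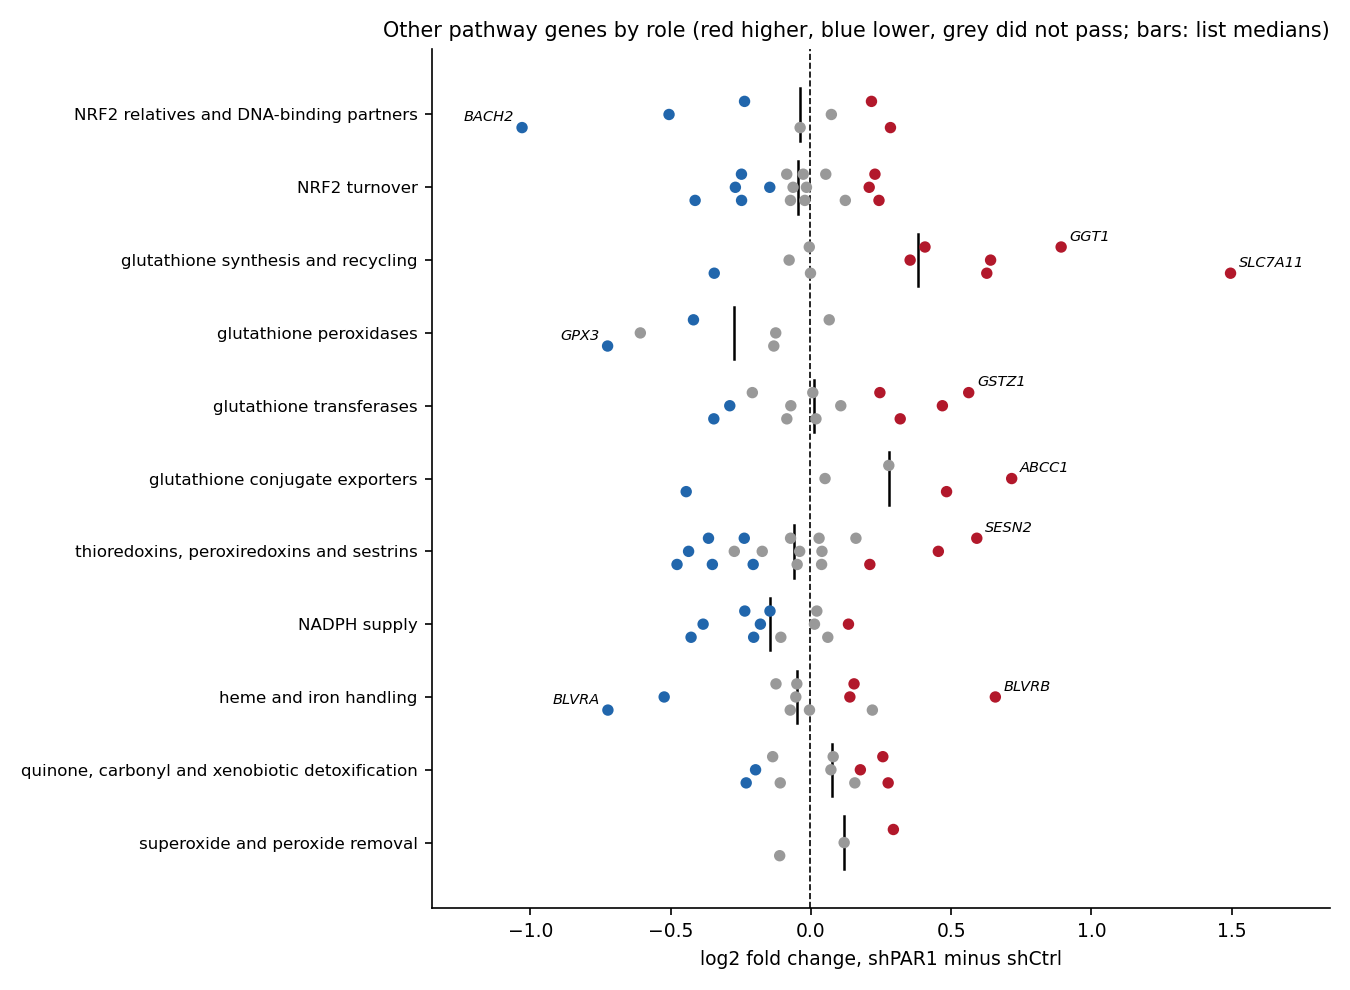
Log2FC (shPAR1 minus shCtrl, horizontal axis) of the 109 tested pathway genes by role, each gene a point (red higher, blue lower, gray not passed) and the short bar the median of the role. SLC7A11 stands farthest to the right and BACH2 farthest to the left, and every role but the peroxidases and the superoxide genes has genes called in both directions.

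The genes whose pattern over the 10 libraries was most like that of a member were found among 12759 genes with a mean of at least 50 normalized counts, by the root mean square difference of log2 values after each gene was centered on its mean. For NFE2L2 these were OSBPL1A (0.0256 log2 units), ROCK1 (0.0303) and DHX29 (0.0361). For HMOX1 they were CTSA (0.0266), GAA (0.0394) and CD99L2 (0.0471), with log2FC values of 0.70, 0.69 and 0.68. CTSA and GAA encode lysosomal enzymes, cathepsin A and acid alpha-glucosidase. This is a description of like patterns in the same libraries, which share their groups, depth and scaling.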

How the data were processed

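Total RNA of 5 shPAR1 and 5 shCtrl PANC-1 libraries was depleted of ribosomal RNA and sequenced. Per the submitters' processing notes the authors used FastQC 0.11.5, Trimmomatic 0.36, HISAT2 2.1.0, HTSeq and DESeq2 with GRCh38. No source used here names the annotation release or strandedness. What they deposited is log2(normalized count + 1), for which the authors scaled the counts of each library by its size factor. Undoing this gave whole counts (within 0.1), used for depth and voom.

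The 17518 genes with at least 10 normalized counts in at least 5 libraries were fitted with limma 3.58.1 (R 4.3.3, trended variance) on the deposited log2 values, with Benjamini-Hochberg adjustment over all of them at 0.05. A fold change on this scale understates that of genes with low counts. On simulated data of 17518 genes for shPAR1 against shCtrl the step recovered 64% of 100 genes changed by 0.5 and 77% of 100 changed by 1 on the log2 scale, with 5 false calls of 146. Only these genes were changed there, whereas 40.9% of genes were called in the data. The adjustment depends on that share, so these rates need not hold for the data. Single values were compared by exact two-sided permutation. Coordinates, overlaps and lengths are from GENCODE 44, to which 27361 identifiers matched, and 24 symbols turned into dates were restored.

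The members and lists were chosen with earlier results of these data known. Named are all members, F2R, the most changed called gene per direction in each role (2 in roles of over 10 genes) and the 3 nearest profiles of NFE2L2 and HMOX1. HMOX2 is named for its pairing with HMOX1, which the design held. Other genes outside this rule are markers, genes that overlap a member, or were chosen after their values were seen. Alternatives were a pseudocount of 5, no filter, at least 1 CPM, library totals with and without mitochondrial genes, voom with quality weights, each library left out, and a looser motif. Genes of the lists with no match were not analysed here.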

Additional observations from a re-analysis of the deposited data

Results flagged for a closer look

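In 6 of the 90 groups of 5 libraries examined for the named genes, 1 library stood farther from the others than Dixon's 95% limit, which chance passes in about 5% of groups. For OSGIN1, shCtrl library 6 was at 6.4751 while the others lay from 6.7509 to 6.8617 (log2). The others were MAFK in shPAR1 library 5 (10.7939, others 11.0721 to 11.1856), GSTO1 in shPAR1 library 1 (10.4783, others 10.7157 to 10.7866), PRDX2 in shPAR1 library 1 (8.8494, others 9.3272 to 9.4336), FTL in shPAR1 library 1 (11.7447, others 12.0178 to 12.1248) and IDH2 in shCtrl library 9 (10.9247, others 10.8370 to 10.8567). shPAR1 library 1 accounts for 3 of the 6, and without it HMOX1 had a log2 fold change of 0.74 and OSGIN1 one of 0.52, both still called.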

How the results depend on the processing

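The count of higher members ranged from 4 to 5 when each library was left out in turn and was 5 under the other alternatives, and the lower count was 1 throughout. The log2 fold change of NFE2L2 ranged from 0.11 to 0.14 with a library left out and lost its call in 4 of these 10 fits. The GCLM log2 fold change ranged from -0.0594 to 0.0127 with a library left out and was 0.0147 with totals without mitochondrial genes (0.0147 also for the difference in the exact test). NFE2L2 minus KEAP1 ranged from 0.0577 to 0.125 log2 units (exact two-sided permutation p = 0.0317 without shPAR1 library 2). With the looser core TGANNNNGC the number of members with a match was 6. NQO1, HMOX1, GCLC, OSGIN1, TXNRD1 and F2R kept direction and call under every alternative run for them. Higher pathway genes numbered 25 to 31 and lower ones 28 to 33. The stricter filter of 1 CPM left out SRXN1, so it has no value there. No paired analysis was possible because the groups share no replicate numbers. Among the members depth limits SRXN1 and, less so, OSGIN1. BACH2 and GGT1 of the pathway list had fewer counts than OSGIN1.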

Other observations

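Several genes often used as readouts of NRF2 in other cells had few counts in these libraries and did not pass the filter. AKR1B10 and AKR1C1, aldo-keto reductases, each had 4 counts over the 5 shPAR1 and 7 over the 5 shCtrl libraries and were at 0 in 3 and 5 libraries. ALDH3A1, an aldehyde dehydrogenase, had 4 and 17 counts, CBR3, a carbonyl reductase, 32 and 64, and GSTM1, a glutathione transferase, 16 and 10. These genes were chosen from the pathway list after their values were seen, and the counts are given without a test.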
